A study of Mus musculus with 14 samples.

Results

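The Bcl2 family genes described here are Bcl2, Bcl2l1, Mcl1, Bax, Bak1, Bcl2l11, Bbc3, Bmf, Bid and Bad, 10 of the 46095 gene symbols in a count table of 14 mice, each represented by its superior mesenteric artery (SMA). They were taken by symbol, and all 10 had enough reads to be tested among 17693 genes. The SMA is a muscular artery that feeds the gut. Drp1, the product of Dnm1l, is the GTPase that divides mitochondria. All mice were 8-week-old C57BL/6 animals, labelled Drp1 +/+ (WT) or Drp1 flox/+ (called KO), and the artery was taken under normal conditions or after ischemia caused by blood loss. Each condition had 3 WT and 4 KO mice. The labels name a floxed allele without a Cre driver, whereas the methods describe a heterozygous line made with CRISPR/Cas9. By either description 1 allele of Drp1 stayed intact, so the KO mice model at most a reduced dose of the gene. The labels give 2 h of ischemia, and the duration that the study's results give for these mice differs.

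Proteins of the Bcl2 family decide whether the outer mitochondrial membrane stays intact. Bcl2, Bcl-xL (the main product of Bcl2l1) and Mcl1 hold the membrane closed. Bax and Bak1 form the pores through which cytochrome c leaves to start caspase activation, and Drp1 has been described to act with Bax at sites of mitochondrial division. The BH3-only proteins sense stress and either occupy the anti-apoptotic members or activate Bax and Bak1 directly. Much of this control is exerted on the proteins, by binding, phosphorylation, cleavage and turnover, and RNA levels do not measure it.

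Each library held 25612646 to 40255851 reads assigned to genes. Levels are given as reads per 1000000 reads of the library (CPM) after TMM scaling. A count of 3 corresponded to 0.0745 to 0.117 CPM before that scaling. A gene was called where edgeR gave a Benjamini-Hochberg adjusted p under 0.05 and a fold change over 1.5. Dnm1l was at 54.8 to 62.2 CPM in normal KO mice against 63.8 to 90.9 in normal WT mice, a log2 fold change of -0.32 that was not called (edgeR, adjusted p = 0.974). After ischemia its KO and WT ranges overlapped. These counts cover the whole gene and do not separate the exon targeted in the CRISPR/Cas9 line. For its KO mice the study reports fewer reads of that exon and less Drp1 protein. Myh11, the smooth-muscle myosin heavy chain, was at 2726 CPM or more in every mouse, whereas Tagln, another smooth-muscle marker, was at no more than 5.78 CPM. Summed markers of brown adipocytes ran from 138.5 to 6017 CPM, and those of white adipocytes from 71.3 to 2352 CPM. In bulk tissue, fewer cells of a type and less RNA per cell cannot be told apart.

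Bcl2l1, Bmf and Bcl2l11 all lie on chromosome 2 of GRCm38. Bcl2l1 spans chr2:152780668-152831728 on the minus strand, Bmf chr2:118528757-118549687 on the minus strand, and Bcl2l11 chr2:128126038-128162547 on the plus strand. Bax lies at chr7:45461697-45466898 on the minus strand. The 250 bases before the outermost RefSeq start site (GRCm38.p6) are shown for the 3 chromosome 2 genes because they gave the clearest separations between groups, and for Bax because it is the partner against which Bcl2l1 is set below. The windows are chr2:152831729-152831978, chr2:118549687-118549936, chr2:128125788-128126037 and chr7:45466899-45467148. Each is printed on its gene's strand, and capitals mark motif matches.
Bcl2l1: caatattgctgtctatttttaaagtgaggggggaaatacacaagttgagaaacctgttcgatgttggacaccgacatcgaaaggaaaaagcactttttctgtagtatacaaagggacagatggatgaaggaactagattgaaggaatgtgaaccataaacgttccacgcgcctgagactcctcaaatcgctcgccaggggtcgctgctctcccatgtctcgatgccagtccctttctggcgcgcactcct
Bmf: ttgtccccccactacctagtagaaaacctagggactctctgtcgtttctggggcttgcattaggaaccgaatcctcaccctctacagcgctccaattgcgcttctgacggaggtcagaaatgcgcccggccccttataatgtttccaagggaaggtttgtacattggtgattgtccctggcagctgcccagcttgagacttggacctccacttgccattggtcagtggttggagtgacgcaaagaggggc
Bcl2l11: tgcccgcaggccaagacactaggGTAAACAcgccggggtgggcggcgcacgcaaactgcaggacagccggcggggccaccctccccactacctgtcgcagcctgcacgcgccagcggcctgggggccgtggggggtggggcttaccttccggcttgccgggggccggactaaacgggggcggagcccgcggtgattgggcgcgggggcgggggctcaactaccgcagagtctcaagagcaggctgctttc
Bax: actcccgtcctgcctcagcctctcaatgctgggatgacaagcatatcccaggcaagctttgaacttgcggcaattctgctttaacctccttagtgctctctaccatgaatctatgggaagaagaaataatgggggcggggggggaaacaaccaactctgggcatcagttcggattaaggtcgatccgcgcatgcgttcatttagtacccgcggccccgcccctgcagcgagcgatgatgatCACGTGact

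On both strands, 5 motifs were searched in the 18 windows of this kind that RefSeq gave for the 10 genes. ACGTG, the core of the hypoxia-response element, was in 2 of the 18 member windows and in 16.6% of all 32851 windows. In both windows, that of Bax and that of a start of Bbc3, it was the palindrome CACGTG, which matches on both strands. The FoxO motif GTAAACA was in 2 of the 18 windows, those of Bcl2l11 and of another start of Bbc3, and in 3.17% of all windows. TTCNNNGAA, the STAT motif, TGANTCA, the AP-1 motif, and TGATGCAA, the C/EBP-ATF motif, were in none of the 18 windows, against 7.02%, 6.75% and 0.791% of all windows. The Bcl2l1 and Bmf windows shown, and the other Bcl2l1 starts, held none of these letters.

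The 10 genes differed widely in level. Per kilobase of annotated exon, Mcl1 was the highest at 68.9 ± 11.9 CPM per kb (SD, n = 14), followed by Bcl2l1 at 38.8 ± 19.3, Bak1 at 21.9 ± 6.62 and Bax at 18.2 ± 3.63. Bad (6.65 ± 1.20), Bmf (5.08 ± 1.93), Bcl2 (4.57 ± 1.21) and Bbc3 (2.56 ± 0.828) formed a lower tier on the same scale. Bcl2l11, which encodes Bim, and Bid were the lowest at 0.664 ± 0.210 and 0.521 ± 0.252 CPM per kb. Some neighbours in this order were not separated. Bmf exceeded Bcl2 in 7 of 14 mice, and Bcl2l1 exceeded Bak1, like Bak1 exceeded Bax, in 9 of 14. In contrast, Bax exceeded Bad, and Bbc3 exceeded Bcl2l11, in all 14 mice. The margin of Bcl2l1 over Bak1 differed between conditions. In normal mice their means were 27.1 and 21.7 CPM per kb in WT, and 19.5 and 25.6 in KO mice. By mouse, Bcl2l1 was at 46.5, 17.1 and 17.8 in normal WT mice, and Bak1 at 18.6, 25.6 and 20.8. In normal KO mice Bcl2l1 was at 29.5, 12.3, 16.1 and 19.9, and Bak1 at 23.5, 18.5, 17.2 and 43.1. Mice with Bak1 above Bcl2l1 were thus found in both genotypes, and only under normal conditions. After ischemia they were 54.8 and 19.0 in WT, and 54.9 and 20.5 in KO mice. The exon length covers all annotated transcripts, so a gene used mainly through a short transcript reads too low on this scale.

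**Figure D1:**
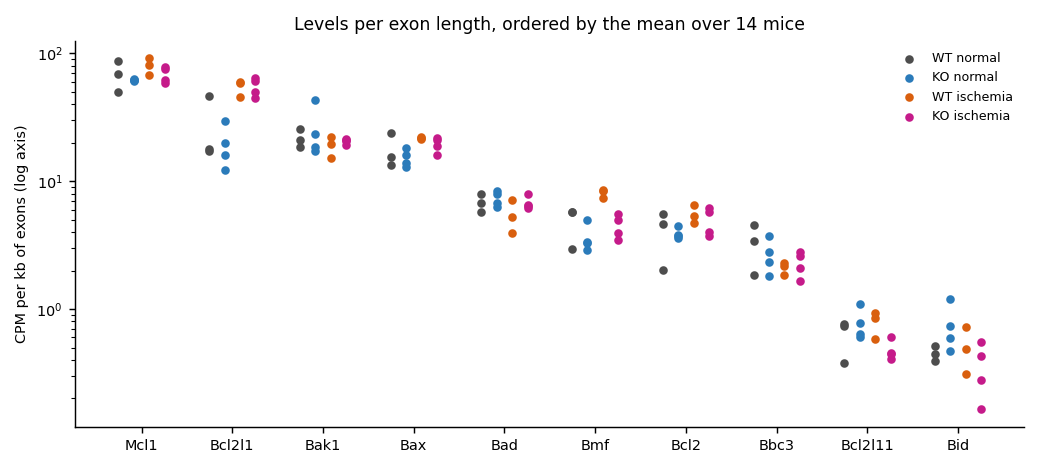
Level of each gene in each mouse in CPM per kilobase of annotated exon (log axis), with genes ordered by their mean over the 14 mice and points coloured by group. By that mean Mcl1 and Bcl2l1 lead, Bak1 and Bax follow, and Bcl2l11 and Bid are the lowest.

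Bcl2l1 was the member that rose after ischemia. In normal WT mice its levels were 213, 78.6 and 81.5 CPM, and in WT mice after ischemia 210, 275 and 269 CPM. In KO mice they were 135, 56.5, 73.8 and 91.3 CPM under normal conditions and 280, 295, 204 and 228 CPM after ischemia. All KO mice after ischemia were above all normal KO mice, a separation upward that 5.49% of all genes showed, whereas in WT mice 1 normal animal, at 213 CPM, lay above the lowest ischemic one. Averaged over both genotypes, the log2 fold change was 1.26 ± 0.256 (SE, edgeR, adjusted p = 0.0354). Bcl2l1 was the only member called, 1 of 10, in this comparison, in which 164 of the 17693 genes, 0.927%, were called and 0.616% were called higher. An exact two-sided permutation test of its log2 CPM, with mice exchanged within genotype, gave p = 0.00286 over 1400 splits, against a smallest possible p of 0.00143. Permutation tests of group differences were run for all 10 members on the same mice as the edgeR fit. Their p-values, here and for Bmf and Bcl2l11 below, are not adjusted for the number of tests.

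The Bcl2l1 call was close to its limit. Leaving out a single animal gave log2 fold changes of 1.14 to 1.58, but the adjusted p (edgeR) ran from 0.00447 to 0.0954. It was under 0.05 only without normal WT mouse 1, normal KO mouse 1 or ischemic WT mouse 1, and the call was lost without any 1 of the other 11 mice. Within KO mice the log2 fold change was 1.496 ± 0.336 (SE, edgeR, adjusted p = 0.0851), which missed the limit. DESeq2 called it there (adjusted p = 0.00211), as did edgeR on the KO mice alone (adjusted p = 0.0251). Within WT mice it was 1.01 ± 0.384 (SE, edgeR, adjusted p = 0.513), and it was 1.64 without the normal WT mouse at 213 CPM, still not called. The 2 genotypes' responses differed by a log2 value of 0.48 ± 0.503 (SE, edgeR interaction term, adjusted p = 0.949), an interval wide enough to leave room for a difference in either direction. After ischemia the genotypes had nearly the same level, 251.3 ± 36.1 CPM for the 3 WT mice and 251.8 ± 42.9 CPM for the 4 KO mice (SD).

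**Figure D2:**
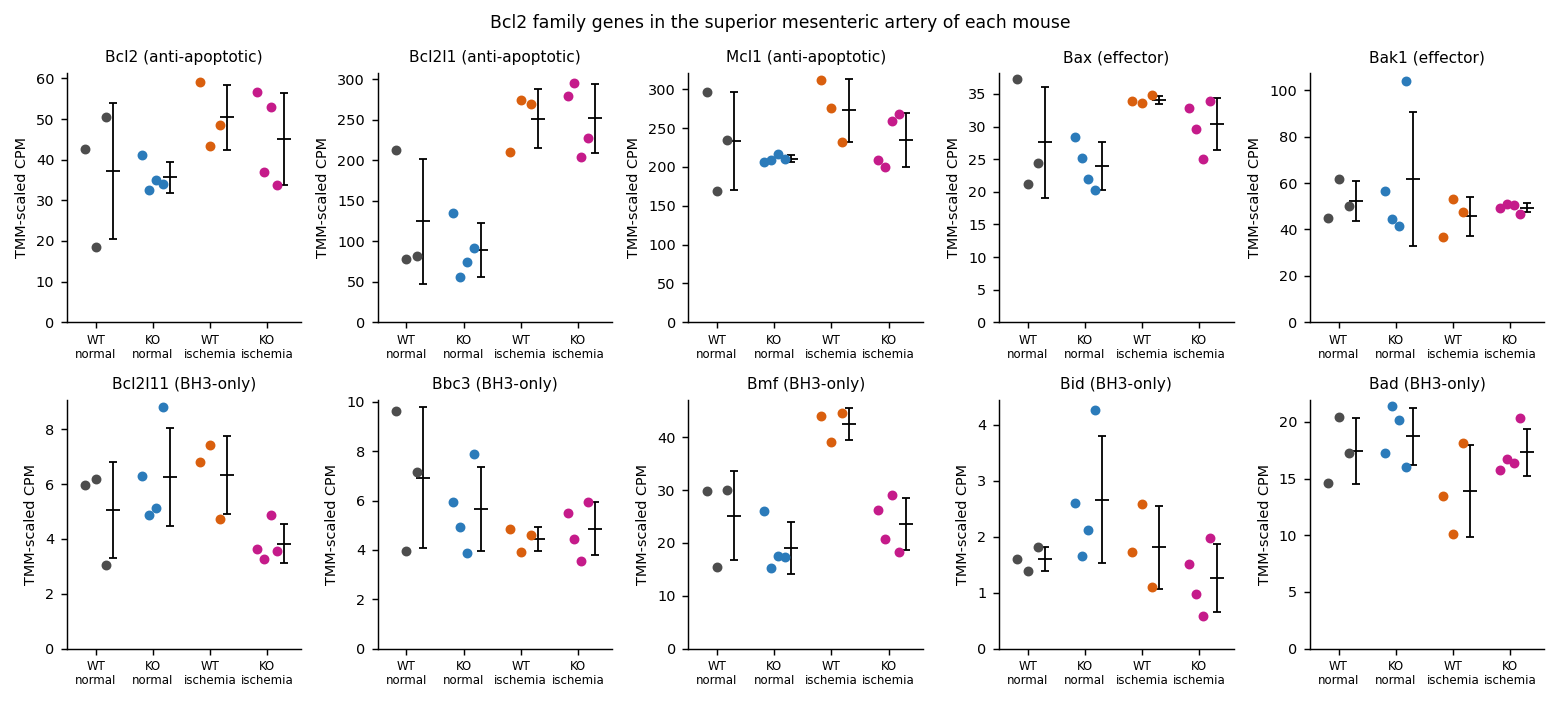
Level of each of the 10 genes in each mouse (TMM-scaled CPM, axis from 0) by group, with the group mean and SD in black beside the points. Bcl2l1 sits at 204 to 295 CPM in the 7 ischemic mice and at 56.5 to 135 in 6 of the 7 normal mice, and Bmf is higher in the 3 ischemic WT mice than in any other mouse.

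The other anti-apoptotic genes were not called in any comparison. Mcl1, whose protein is short-lived and has to be made continually, was at 169 to 296 CPM in normal WT mice, 206 to 217 in normal KO mice, 232 to 312 in ischemic WT mice and 200 to 268 in ischemic KO mice. Its log2 fold change after ischemia, averaged over genotypes, was 0.19 ± 0.143 (SE, edgeR, adjusted p = 0.493), well under that of Bcl2l1. Bcl2 itself ran from 18.4 to 50.5 CPM in normal WT mice and from 43.4 to 59.2 CPM in ischemic WT mice. In KO mice Bcl2 was at 32.6 to 41.2 CPM and, after ischemia, at 33.9 to 56.7 CPM. Its mean log2 fold change was 0.39 ± 0.205 (SE, edgeR, adjusted p = 0.331). The lowest Bcl2 value belonged to normal WT mouse 2, which also had the lowest summed smooth-muscle markers of all 14 mice.

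Neither Bax nor Bak1, the pore formers, was called in any comparison. Bax was at 37.3, 21.1 and 24.4 CPM in normal WT mice and at 34.0, 33.6 and 34.8 CPM in ischemic WT mice. In KO mice it was at 28.5, 25.1, 22.0 and 20.2 CPM and, after ischemia, at 32.8, 29.6, 25.1 and 34.0 CPM. The normal and ischemic groups overlapped in both genotypes, and the mean log2 fold change was 0.32 ± 0.143 (SE, edgeR, adjusted p = 0.256). Bak1 ran from 41.5 to 104 CPM in normal mice and from 36.6 to 53.0 CPM in ischemic mice, a mean log2 fold change of -0.26 ± 0.193 (SE, edgeR, adjusted p = 0.494). The Bak1 value of 104 CPM came from normal KO mouse 4, which was also the highest of all mice for Bcl2l11 and Bid, and the other 3 normal KO mice were at 41.5 to 56.7 CPM. For Bax the log2 fold change of KO against WT was -0.20 ± 0.201 under normal conditions and -0.17 ± 0.201 after ischemia (SE, edgeR).

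Setting Bcl2l1 against Bax within each animal removes the scaling between libraries. Normal WT mice had 4.26 ± 1.28 Bcl2l1 reads for each Bax read (SD, n = 3) and normal KO mice 3.72 ± 1.16 (SD, n = 4). After ischemia the ratio was 7.37 ± 1.06 in WT mice and 8.34 ± 1.34 in KO mice. The 7 normal mice lay between 2.25 and 5.72 and the 7 ischemic mice between 6.18 and 9.98, with no overlap, so the normal WT mouse that stood high in Bcl2l1 stood high in Bax as well. This ratio was chosen after the levels had been seen and is given without a test. How many other genes would be separated in this way against Bax was not counted. The ratio of Bcl2 to Bax showed no such separation, at 0.871 to 2.07 in normal and 0.996 to 2.11 in ischemic mice. Bcl2l1 over Bak1, the other pore former, overlapped, at 0.880 to 4.76 in normal and 4.02 to 5.78 in ischemic mice. Without regard to gene length, Bcl2l1 had 0.270 to 0.721 reads for each Mcl1 read in normal mice and 0.672 to 1.48 after ischemia, while per kilobase of exon Mcl1 stayed above it in 13 of 14 mice.

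**Figure D3:**
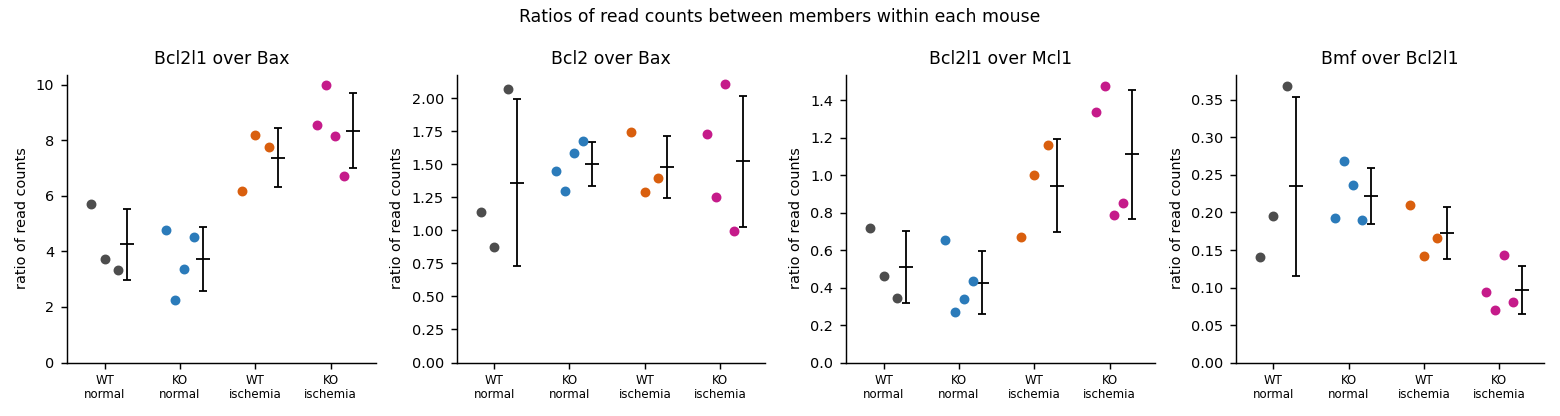
Ratios of raw read counts between members in each mouse (axes from 0), with the group mean and SD in black. Every ischemic mouse lies above every normal mouse for Bcl2l1 over Bax, a ratio chosen after the levels had been seen. Bcl2 over Bax overlaps throughout.

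Summed per exon length, the share of the 10 genes held by Bcl2, Bcl2l1 and Mcl1 was 63.3% ± 6.68 in normal WT mice and 60.6% ± 4.40 in normal KO mice. After ischemia it was 70.9% ± 2.09 in WT (SD, n = 3) and 70.3% ± 0.578 in KO mice (SD, n = 4). Bcl2l1 alone went from 16.6% ± 6.09 to 27.7% ± 4.00 in WT and from 13.6% ± 4.11 to 30.1% ± 5.15 in KO mice. The share of Mcl1 was 44.0% and 44.2% in normal WT and KO mice and 40.4% and 37.5% after ischemia, and that of Bax with Bak1 was 26.2% and 28.7% against 20.5% and 21.8%. Since these are shares of 1 sum, a rise in 1 gene lowers the rest.

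Among the 10 genes, BH3-only genes had the 3 largest differences between genotypes after ischemia, none of them called. Bmf, whose protein is held at the cytoskeleton and released on loss of attachment, was at 29.9, 15.4 and 30.0 CPM in normal WT mice and at 44.1, 39.1 and 44.5 CPM in ischemic WT mice. In KO mice it was at 26.1, 15.2, 17.5 and 17.4 CPM and, after ischemia, at 26.2, 20.8, 29.2 and 18.3 CPM. The 3 ischemic WT mice were therefore above all other mice. Within WT mice, 6.63% of all genes were separated upward in this way after ischemia. Between KO and WT mice after ischemia the log2 fold change of Bmf was -0.85 ± 0.256 (SE), with an unadjusted p of 0.00528 and an adjusted p of 0.715 in edgeR. The exact two-sided permutation test gave p = 0.0286, the smallest that 3 against 4 mice allow. Non-overlap of this kind was found for 10.7% of all genes tested in that comparison and for 5.97% in the direction of Bmf, so 1 of 10 members was close to the background. In WT mice Bmf had a log2 fold change of 0.76 ± 0.277 after ischemia (SE, edgeR, adjusted p = 0.513), and in KO mice of 0.31 ± 0.239 (SE, edgeR, adjusted p = 0.6246). The difference between the 2 responses was -0.45 ± 0.365 (SE, edgeR interaction term, adjusted p = 0.946). Bmf is among the genes the study took up in these same mice, so its pattern is not independent evidence.

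Tissue markers also varied between these mice. Summed smooth-muscle markers were at 19603 to 35650 CPM in ischemic WT mice and at 18330 to 29769 CPM in ischemic KO mice, and brown adipocyte markers at 245 to 1232 against 885 to 4472 CPM. Per 1000 reads of Myh11, Bmf had 3.23 to 5.12 reads in ischemic WT mice and 2.54 to 4.23 in ischemic KO mice, which overlapped. With group means removed, the log2 CPM of Bmf correlated with the smooth-muscle sum (Pearson's r = 0.752, Spearman's rho = 0.635) and inversely with the brown adipocyte sum (r = -0.697, rho = -0.714). Exact permutation within groups gave p = 0.0343 and 0.0421 for the former and 0.0601 and 0.0215 for the latter, with adjusted values of 0.229, 0.211, 0.241 and 0.143 over the 20 relations computed. Without the 2 mice farthest from the median of the log2 marker sum, group means removed, r was 0.607 and -0.511. Such relations were not particular to Bmf. Bcl2 correlated with the smooth-muscle sum at r = 0.787 and rho = 0.697 (exact permutation, p = 0.0146 and 0.0150, adjusted 0.229 and 0.143) and with the brown adipocyte sum at r = -0.702 and rho = -0.749 (exact permutation, p = 0.0933 and 0.00608, adjusted 0.311 and 0.122). Bax correlated with the brown adipocyte sum at r = -0.767 and rho = -0.635 (exact permutation, p = 0.0291 and 0.0568, adjusted 0.229 and 0.216). Without the 2 farthest mice these r values were 0.645, -0.530 and -0.460. For Bcl2l1 the same relations were weaker than for Bmf, at r = 0.416 with smooth muscle and -0.635 with brown adipocytes (exact permutation, p = 0.404 and 0.131), and the second was -0.267 without the 2 farthest mice. Per 1000 Myh11 reads, Bcl2l1 was at 10.7 to 22.8 in normal and 27.1 to 37.4 in ischemic KO mice, with no overlap. In WT mice it was at 9.12 to 28.8 and 15.3 to 36.0, which overlapped. The share of all genes separated on that scale was not counted. The part of the tissue mixture in these levels, and in the ratio to Bax, was not tested.

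**Figure D4:**
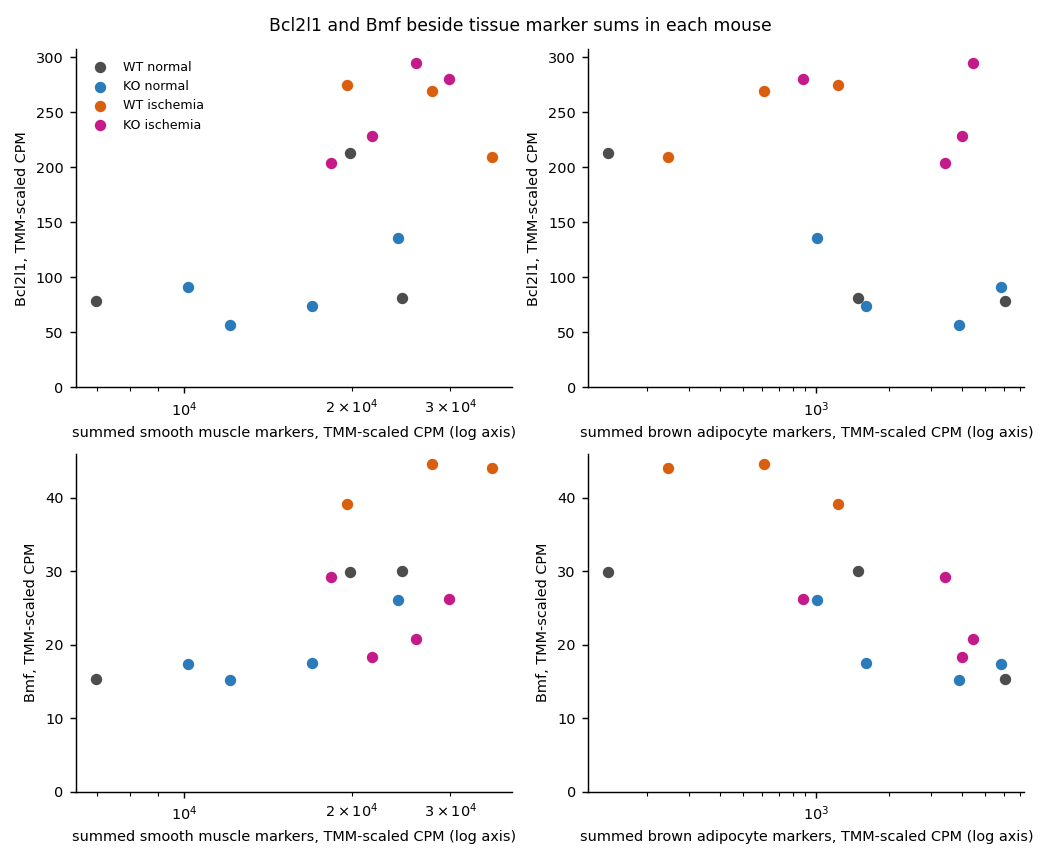
Bcl2l1 (top) and Bmf (bottom) in each mouse (TMM-scaled CPM) against the summed smooth-muscle (left) and brown adipocyte markers (right, log axes), coloured by group. Bmf is highest in the 3 ischemic WT mice, whose brown adipocyte sums are 245 to 1232 CPM, and ischemic mice hold high Bcl2l1 at both low and high brown adipocyte sums.

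Bcl2l11 encodes Bim, a broad binder of the anti-apoptotic proteins and a known FoxO target. It was at 5.96, 6.18 and 3.06 CPM in normal WT mice and at 6.81, 7.45 and 4.72 CPM in ischemic WT mice. In KO mice it was at 6.29, 4.88, 5.13 and 8.80 CPM and, after ischemia, at 3.63, 3.26, 4.88 and 3.56 CPM. The normal and ischemic KO groups met without overlapping at about 4.88 CPM, and 5.6% of all genes were separated downward between these groups, while the lowest ischemic WT mouse lay below the highest ischemic KO mouse. Within KO mice the log2 fold change was -0.71 ± 0.298 (SE, edgeR, adjusted p = 0.322; exact permutation p = 0.0286, the smallest possible with 4 against 4 mice). In WT mice it was 0.32 ± 0.343 (SE, edgeR, adjusted p = 0.737). The interaction term, -1.03 ± 0.454 (SE), had the smallest unadjusted p of the 10 members, 0.0400, and an adjusted p of 0.946 in edgeR. At an unadjusted p under 0.05, this was 1 of 10 members against 4.32% of all genes.

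Bbc3, which encodes the p53 target Puma, was at 9.65, 3.94 and 7.17 CPM in normal WT mice and at 4.83, 3.91 and 4.59 CPM after ischemia, and it ran from 3.86 to 7.88 and from 3.54 to 5.93 CPM in normal and ischemic KO mice. Its mean log2 fold change was -0.43 ± 0.238 (SE, edgeR, adjusted p = 0.356). Bid, which links death receptors to mitochondria once cut by caspase-8, rested on 20 to 139 reads in a mouse. It was at 1.66 to 4.26 CPM in normal and 0.585 to 1.98 CPM in ischemic KO mice, a log2 fold change of -1.07 ± 0.464 (SE, edgeR, adjusted p = 0.340). In WT mice Bid was at 1.38 to 1.81 CPM and 1.10 to 2.59 CPM. Bad, which is inactivated by survival-factor signalling, varied least of the BH3-only genes, from 10.1 to 21.4 CPM over all mice, with a mean log2 fold change of -0.22 ± 0.152 (SE, edgeR, adjusted p = 0.454). Some exon bases are shared with other annotated genes, and whether reads were counted by strand is not given in the sources used here. Of the exon bases, 20.5% were shared for Bad (with Gpr137), 17.7% for Bid (Bcl2l13), 25.5% for Bak1 (Ggnbp1), 12.2% for Bax (Gm45808) and 6.09% for Bcl2 (D630008O14Rik), and none for Bcl2l1, Mcl1, Bcl2l11, Bbc3 or Bmf. Gm45808 lies on the same strand as Bax, so counting by strand would not separate them. The other sharing genes lie on the strand opposite to the member.

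**Figure D5:**
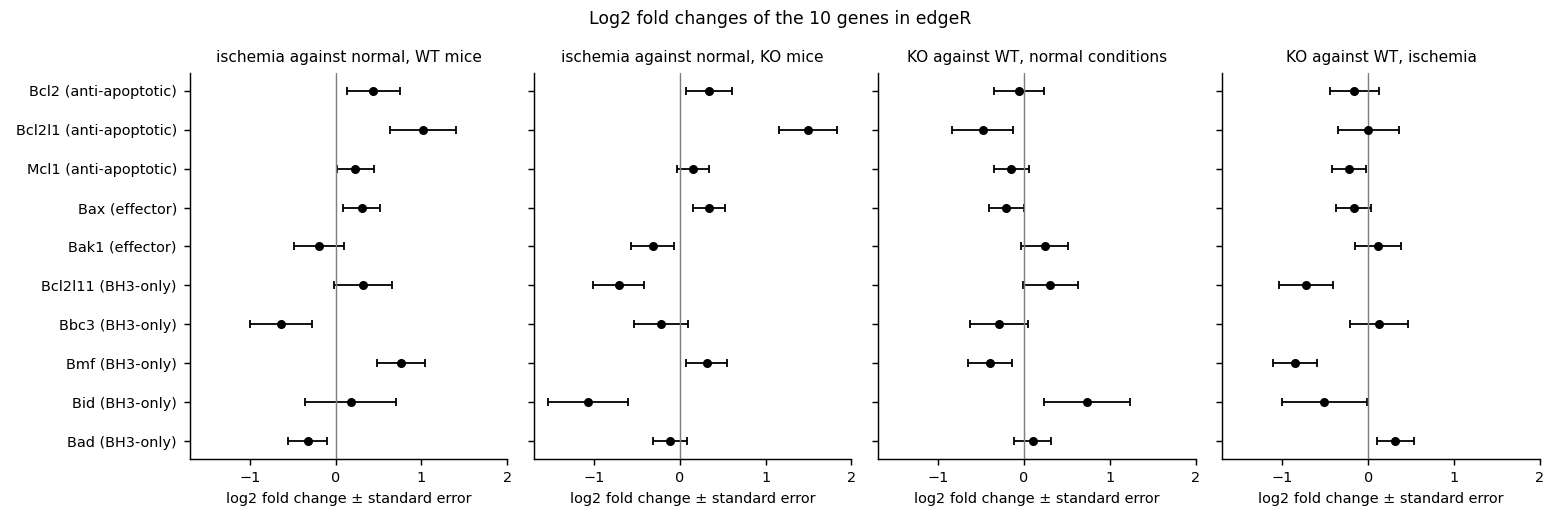
Log2 fold changes of the 10 genes with their standard errors from edgeR for the 4 pairwise comparisons, with 0 marked by a line. Bcl2l1 lies to the right in both ischemia panels (1.01 and 1.496), and Bmf and Bcl2l11 to the left for KO against WT after ischemia (-0.85 and -0.72).

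Counted over the family, 0 of 10 members were called for genotype, in normal or in ischemic mice, or for the interaction, in edgeR and in DESeq2. Over all genes edgeR called 0% in each of these 3 comparisons, and DESeq2 called 50, 32 and 13 genes. At an unadjusted p under 0.05 in edgeR, 0, 2 and 1 members passed against 5.25%, 6.48% and 4.32% of all genes. After ischemia within WT and within KO mice, 0 of 10 were called by edgeR, against 0.0113% (2 genes, and 0 with the replicate block) and 0.294% of all genes, and unadjusted p under 0.05 was reached by 2 and 3 members against 9.57% and 13.2%. Averaged over genotypes, 3 members reached it after ischemia, Bcl2l1, Bmf and Bax, all higher, against 18.1% of all genes in either direction and 8.35% higher. The median log2 fold change of the 10 members in that comparison was -0.00, with 5 positive and 5 negative, beside -0.05 over all genes. In KO against WT mice after ischemia the median was -0.16 for the members and -0.03 for all genes.

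Of the other genes of the pathway, Birc3 and Atf4 rose after ischemia. Birc3 (cIAP2), a ubiquitin ligase that restrains caspase-8 activation downstream of TNF receptors, was at 29.4, 14.8 and 11.5 CPM in normal and 23.6, 118 and 44.8 CPM in ischemic WT mice. In KO mice it was at 16.7 to 23.8 CPM and, after ischemia, at 45.9 to 72.5 CPM. Its mean log2 fold change was 1.64 ± 0.320 (SE, edgeR, adjusted p = 0.0299), and it was 1.21 without ischemic WT mouse 2, the one at 118 CPM (edgeR, adjusted p = 0.0514). With the replicate number as a block the call was lost (edgeR, adjusted p = 0.0568). Leaving out 1 mouse at a time kept the call in 4 of 14 fits, with adjusted p (edgeR) from 0.00760 to 0.0745. Atf4, the transcription factor of the integrated stress response, was at 110 to 180 CPM in normal and 166 to 275 CPM in ischemic WT mice, and at 117 to 144 and 226 to 289 CPM in KO mice, where the groups did not overlap. Its log2 fold change was 1.07 ± 0.199 in KO mice (SE, edgeR, adjusted p = 0.0447) and 0.83 ± 0.152 averaged over genotypes (SE, edgeR, adjusted p = 0.0232), the latter kept in 9 of 14 fits with adjusted p (edgeR) from 0.0108 to 0.0648 and lost without normal KO mice 2, 3 or 4, ischemic WT mouse 2 or ischemic KO mouse 2.

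The rest of the pathway was not called by edgeR. Of the apoptosome and caspases, 9 of 9 were tested and 0 were called in any comparison, although 5 had an unadjusted p under 0.05 after ischemia averaged over genotypes, all lower, around a median of -0.37 on the log2 scale for the 9 genes. At that limit 9.72% of all genes were lower. By DESeq2, which called 876 genes in that comparison, Casp2 and Casp6 were called lower. Some markers of blood cells were lower after ischemia too. All 3 erythroid markers had an unadjusted p under 0.05 in edgeR, with a median log2 fold change of -1.64. The erythroid sum was at 88.0 to 194 CPM in normal and 3.98 to 89.8 CPM in ischemic WT mice. In KO mice it was at 283 to 481 and 62.5 to 151 CPM. Of 4 lymphocyte markers tested, whose sum did not exceed 13.3 CPM, Cd3g was called lower (edgeR, adjusted p = 0.0322). The median log2 fold change of 4 macrophage markers was -0.83. Neutrophil markers went the other way, with a median of 1.46 over 4 genes, none at an unadjusted p under 0.05 in edgeR. The neutrophil sum did not exceed 17.7 CPM. The part of these cell types in the values of the caspases was not tested. Cytochrome c (Cycs), Apaf1 and Casp9 had mean log2 fold changes of -0.51 ± 0.475, 0.14 ± 0.149 and -0.35 ± 0.151 (SE, edgeR). Cycs ran from 4.57 to 63.1 CPM in normal WT mice alone, with its lowest and highest values in the mice of the lowest and highest brown adipocyte sums. Of the other Bcl2 family genes 12 of 14 were tested and 0 called, with 1 higher and 2 lower at an unadjusted p under 0.05 after ischemia averaged over genotypes, where 18.1% of all genes passed that limit. Bik was 1 of the 876 genes DESeq2 called there, higher after ischemia. Among them Pmaip1, which encodes Noxa, was at no more than 3.78 CPM and had no reads in 1 normal WT mouse, and its level gave no call (edgeR, adjusted p = 0.414) except without normal WT mouse 1, the highest normal mouse at 2.36 CPM (edgeR, adjusted p = 0.0217). Of the inhibitors of apoptosis and their antagonists 7 of 7 were tested and only Birc3 was called, with Birc2 among the 876 genes of DESeq2 as well. Of the death receptor genes 7 of 8 were tested and 0 called by either tool. Fas, the receptor for Fas ligand, was at 51.4 ± 7.18 CPM in the 3 ischemic WT mice and 34.4 ± 2.52 CPM in the 4 ischemic KO mice (SD), a log2 fold change of -0.58 ± 0.241 (SE, edgeR, adjusted p = 0.715). Like Bmf, Fas is among the genes the study took up in these same mice, so its pattern is not independent evidence. Of the upstream transcription factors 7 of 8 were tested and only Atf4 was called, in 2 comparisons, while DESeq2 also called Foxo3 averaged over genotypes (1 of 876 genes) and Foxo1 within KO mice (1 of 613 genes), both higher.

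The genes whose log2 CPM followed each member most closely over the 14 mice are given as a description, since these mice share conditions and tissue mixture. For Bcl2l1 they were Lrrc8a, a volume-regulated anion channel subunit (Pearson's r = 0.980), Ppp1r15a, the eIF2α phosphatase subunit induced through Atf4 (r = 0.956), and the metallothionein Mt2 (r = 0.949), and 39 of 17692 genes exceeded an r of 0.9. For Bcl2 they were Pde3a, Thsd4 and Fgf2 (r = 0.950, 0.944 and 0.942), and for Mcl1 Ier3, Arid5a and Cyp1b1 (r = 0.878, 0.877 and 0.845). Bax was closest to Tsc22d4, Trip6 and Gm15210 (r = 0.916, 0.916 and 0.915). Bak1 was closest to Apol6 and Igtp (r = 0.945 and 0.917), of which Igtp is an interferon-inducible GTPase, and to Idnk (r = 0.904, but Spearman's rho of only 0.468). For Bmf they were 4932438A13Rik, Asxl1 and Fam160b1 (r = 0.925, 0.922 and 0.916), and for Bcl2l11 Adgrg2, Sp140 and Miip (r = 0.898, 0.818 and 0.808). Bad, at r = 0.859 with Fam58b, 0.850 with Epor and 0.850 with Morn2, had no gene over 0.9. Bbc3 (Mterf1a, Mapk9 and A230072C01Rik) and Bid (Lrrc61, Dnase1l2 and Dnah2) had no gene over 0.8. Among the members themselves the closest pair was Bcl2l1 with Bax (r = 0.811), followed by Bcl2 with Bmf (r = 0.776), and the most opposed was Bmf with Bad (r = -0.682).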

How the data were processed

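RNA from the SMA of 14 mice was sequenced, and the authors deposited raw read counts per gene symbol, 1 column per mouse. The submitters' processing notes name HISAT2 2.0.4 and mm10. The counting program, annotation and use of strand are not given in the sources used here. Groups were taken from the labels.

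Counts were tested with edgeR 4.0.16 in R 4.3.3 (TMM scaling, expression filter by group, quasi-likelihood fit of all 4 groups), adjusted over 17693 genes, at an adjusted p under 0.05 and a fold change over 1.5. Simulated counts with known fold changes were used to check the fit. DESeq2 1.42.0, its size factors, no filter, at least 10 counts in every mouse, no fold limit, only the groups compared, a replicate block and each mouse left out were alternatives. Same-numbered mice deviated together in all 3 pairs of normal and ischemic WT mice, and not throughout in any other comparison, so the blocked value is given where it changed a call. Log2 CPM used a prior count of 2. Exon lengths and positions came from GENCODE M21 and promoters from RefSeq.

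The 10 members, Dnm1l, list genes past the limits, 6 apoptosis genes fixed by name (1 of them is not reported here), the 3 genes most like each member and markers that moved with a member were named by rule. Genes that only DESeq2 called, and the genes that share exons with a member, were named after their values were seen. The members and lists were chosen with earlier results of these data known. Intervals of counting error are not given, since spread between mice exceeded it. The p-values of the group comparisons judge differences against the spread between these mice. Of the libraries, 13 carry the same lane number and 1, normal WT mouse 3, another.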

Additional observations from a re-analysis of the deposited data

How the results depend on the processing

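Of 400 values of the members' log2 fold changes under the alternatives, 398 kept their status, called or not. Nearly all of these stayed uncalled, since Bcl2l1 after ischemia, averaged over genotypes, was the only member value called in the main fit. The values without a fold limit are those of the main fit. Another 2 gained a call (Bcl2l1 after ischemia within KO mice, 1.49 with DESeq2 and 1.52 with only the groups compared). They moved the members called there from 0 to 1, and no called value changed sign. In 4 of the 398, none of them called, the sign differed. Of 840 values with 1 mouse left out, 827 kept their status, called or not, 11 lost a call and 2 gained one. The 11 losses were all among the 14 fits of that only Bcl2l1 call. In 31 of the 827, none of them called, the sign differed. The Bcl2l1 call after ischemia, averaged over genotypes, held under all 6 alternatives that could be fitted to it, with adjusted p from 0.00036 to 0.0424 (edgeR and DESeq2). The alternative without a fold limit reuses the main fit, so it could not lose the call. Members called with 1 mouse left out numbered 0 to 1 there and within KO mice, and 0 in the other comparisons.

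Genes called over the whole table depended on the tool. DESeq2 called 50 for KO against WT in normal mice (0 in edgeR, 0 to 29 with a mouse left out, 29 without normal WT mouse 2), 32 after ischemia (0 in edgeR, also with any mouse left out) and 13 for the interaction (0 in edgeR, likewise). After ischemia it called 112 in WT mice (2 in edgeR, 0 with only the groups compared and 0 with the replicate block, 0 to 3 with a mouse left out), 613 in KO mice (52 in edgeR, 267 with only the groups compared, 5 to 174 with a mouse left out) and 876 averaged over genotypes (164 in edgeR, 60 to 361 with a mouse left out). The cause was not tested. The labels do not say what a replicate number marks. Deviations of same-numbered mice from their group means correlated at -0.146 to 0.316, with 11 of 19 pairs over 0.1 against 9 of 54 differently numbered pairs. All 3 pairs of normal and ischemic WT mice exceeded 0.1 (0.120 to 0.192), but in no other 2 groups did every pair. With the replicate block the log2 fold change of Birc3 was 1.64 with an adjusted p of 0.0568 (edgeR), and no member gained or lost a call. For Bid, at 20 to 139 reads, counting error adds to the spread.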
